A study of Rattus norvegicus with 9 samples.

Results

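Gtf3c3, Gtf2h4, Ankrd40 and Slc35b4 are 4 genes that, in RBL-2H3 cells, a rat line from basophilic leukemia that stands in for MCs, stood at least 2 times above control both after antigen stimulation and after antigen stimulation with PF pretreatment. They were matched by symbol among the 18006 genes with values and were chosen for this pattern, so their levels in the 3 groups are a description and carry no test. RNA was sequenced from 3 control samples (Ctrl), 3 antigen-stimulated samples (labelled IgE/DNP, here DNP) and 3 PF samples. By the labels, DNP cells received 50 ng/ml of IgE against DNP for 12 h, which loads the IgE receptor, and then 100 ng/ml of the antigen DNP-HSA for 4 h. PF cells received the same IgE and antigen, with PF given for 1 h before the antigen. PF is not identified in the labels. One label field gives the PF samples 4, 5 and 6 h of antigen (replicates 1, 2 and 3), and another gives 4 h. The Ctrl samples are called untreated in one field, while a protocol shared by all 9 samples includes the IgE step, so whether Ctrl cells carried IgE is not settled.

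The 4 genes belong to different machines. Gtf3c3 encodes a subunit of TFIIIC, the factor that recognises the internal promoters of tRNA genes and recruits RNA polymerase III (Pol III) to them. Gtf2h4 encodes the p52 subunit of TFIIH, which opens promoter DNA for RNA polymerase II and opens damaged DNA during nucleotide excision repair. Slc35b4 encodes a transporter that carries UDP-xylose and UDP-N-acetylglucosamine into the Golgi, where UDP-xylose starts the glycosaminoglycan chains of proteoglycans such as serglycin, the granule matrix of MCs. Ankrd40 encodes a protein with ankyrin repeats, which are protein-binding modules.

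The letters just before the transcription start are shown for the genes that had a RefSeq entry, because the data compare how these genes moved together. Of the 4 genes, 3 had a promoter entry in the RefSeq table (GRCr8), and Gtf3c3 had none. The 250 bases before the start are given 5′ to 3′ on the gene's strand, at chr20:3075860-3076109 (plus strand) for Gtf2h4, chr10:79778716-79778965 (plus strand) for Ankrd40 and chr4:63766197-63766446 (minus strand) for Slc35b4. Capitals mark matches to AP-1 (TGANTCA), MEF2 (CTAAAAATAG) or the ZNF143-type element (ACTACANNTCCC), searched on both strands. The last 2 were read from the shown promoters themselves, MEF2 from Ankrd40 and ZNF143-type from Gtf2h4 with 2 bases left free (N). Both Gtf2h4 copies have T at the second free base, where the Slc35b4 match has G, so that match needs this base left free.
Gtf2h4: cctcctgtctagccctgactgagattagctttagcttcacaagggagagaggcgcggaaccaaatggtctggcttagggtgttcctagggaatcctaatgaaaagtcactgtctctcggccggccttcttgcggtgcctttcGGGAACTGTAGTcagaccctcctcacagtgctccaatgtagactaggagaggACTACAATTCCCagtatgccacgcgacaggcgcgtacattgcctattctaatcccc
Ankrd40: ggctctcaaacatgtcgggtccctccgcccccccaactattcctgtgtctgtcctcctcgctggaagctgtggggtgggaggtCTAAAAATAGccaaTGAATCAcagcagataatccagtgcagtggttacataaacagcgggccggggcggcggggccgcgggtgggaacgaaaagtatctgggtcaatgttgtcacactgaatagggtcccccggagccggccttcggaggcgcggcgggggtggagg
Slc35b4: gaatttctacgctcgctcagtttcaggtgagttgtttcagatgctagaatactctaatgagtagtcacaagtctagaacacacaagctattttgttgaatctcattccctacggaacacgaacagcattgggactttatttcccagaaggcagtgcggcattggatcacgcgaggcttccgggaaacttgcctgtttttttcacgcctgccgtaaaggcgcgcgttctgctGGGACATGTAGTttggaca

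The ZNF143-type element, a match to the site of the zinc finger factor ZNF143, stood at 2 places in the Gtf2h4 promoter, on the plus strand from 56 to 45 bases and on the minus strand from 108 to 97 bases before the start. In the Slc35b4 promoter it stood once, on the minus strand, from 19 to 8 bases before the start. This element was held by 1.65% of the 33469 promoters in the table and by 3 of 19 promoters (RGD1309730, RGD1311847 and Zc4h2) of the other genes at 2 times Ctrl or more in both groups. Only 19 of these 35 other genes had a promoter entry, and whether their share differs from that of all promoters was not tested. The Ankrd40 promoter held an AP-1 match (TGAATCA) from 153 to 147 bases before the start, as 6.34% of all promoters did. It also held a MEF2 match from 167 to 158 bases before the start, as 0.114% of all promoters did. Of the same 19 promoters of other genes, 1 (Far2) held an AP-1 match and 0 held a MEF2 match. A CCAAT box of Ankrd40 overlapped the AP-1 match by its last base, at 153. No match to CRE (TGACGTCA), EGR (GCGNGGGCG) or E-box (CACGTG) letters lay in these 3 windows. Since both read-out elements were picked from these promoters, their presence there carries no weight, and a match is neither a binding site nor a cause.

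Gtf3c3 (gene ID 316810) was the least abundant of the 4 after stimulation. It measured 2.91, 2.07 and 2.58 FPKM in the Ctrl samples, a unit normalised for gene length and sequencing depth. It measured 5.18, 5.72 and 5.29 FPKM in the DNP samples and 5.84, 5.48 and 5.57 FPKM in the PF samples. Every stimulated sample lay above every Ctrl sample, whereas the DNP and PF samples overlapped. Its mean rose from 2.52 ± 0.423 FPKM in Ctrl to 5.40 ± 0.285 in DNP and 5.63 ± 0.187 in PF (SD, n = 3 each), which is 2.14 and 2.23 times Ctrl.

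Gtf2h4 (gene ID 294236) was the most abundant of the 4 in each group. Its Ctrl samples held 5.40, 4.10 and 5.51 FPKM, its DNP samples 11.13, 10.44 and 9.94 FPKM, and its PF samples 11.76, 10.39 and 11.62 FPKM. The lowest DNP sample was 1.80 times the highest Ctrl sample, and the DNP and PF samples again overlapped. The group means were 5.00 ± 0.784, 10.5 ± 0.598 and 11.3 ± 0.754 FPKM, which places DNP at 2.10 times and PF at 2.25 times Ctrl.

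Ankrd40 (gene ID 690586) had the highest ratio to Ctrl among the 4. It measured 2.10, 2.51 and 2.98 FPKM in Ctrl, 6.62, 7.73 and 7.14 FPKM in DNP, and 7.72, 7.51 and 8.36 FPKM in PF. The lowest DNP sample was 2.22 times the highest Ctrl sample, and one DNP sample lay within the PF range. Its mean went from 2.53 ± 0.44 FPKM in Ctrl to 7.16 ± 0.555 in DNP (2.83 times) and 7.86 ± 0.443 in PF (3.11 times).

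Slc35b4 (gene ID 296969) read 3.14, 3.47 and 4.06 FPKM in Ctrl and 7.04, 8.59 and 8.47 FPKM in DNP. Its PF samples were closely spaced, at 8.44, 8.07 and 8.10 FPKM, inside the DNP range. The means were 3.56 ± 0.466, 8.03 ± 0.862 and 8.20 ± 0.206 FPKM, or 2.26 times Ctrl in DNP and 2.31 times Ctrl in PF.

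**Figure D1:**
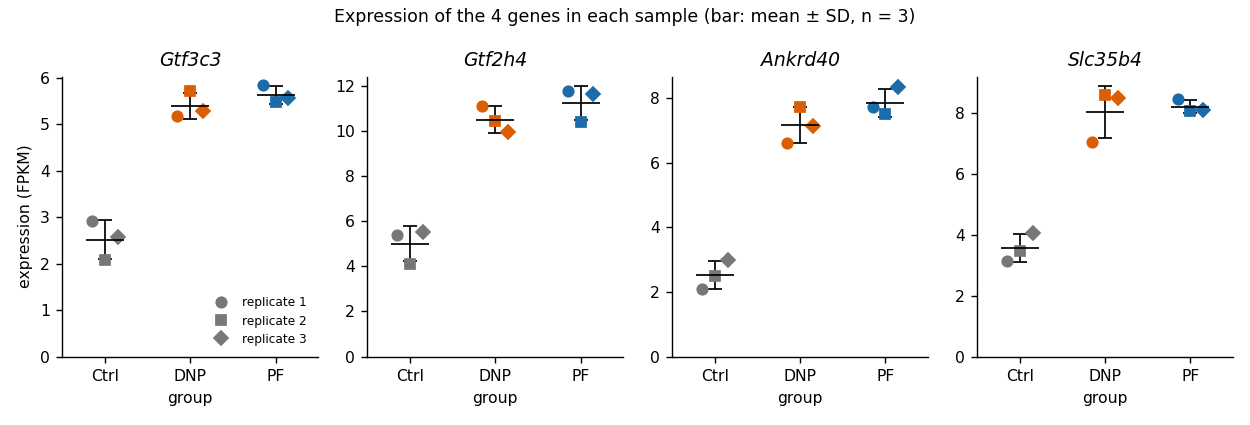
Expression in FPKM (vertical axis, from 0) of the 4 genes in each of the 9 samples, by group, with the mean ± SD of 3 replicates as bars and replicate numbers as symbols. All DNP and PF points lie above all Ctrl points in each panel, and DNP and PF points overlap.

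For all 4 genes the DNP and PF samples stood above the Ctrl samples without overlap. Among all genes tested, 22.4% did so in DNP and 26.6% in PF, and since the 4 were picked on these contrasts nothing is read from their count. Between DNP and PF, 0 of the 4 genes separated without overlap in either direction, which 57.6% of all genes did. The 4 were picked from these same DNP and PF values for being high in both, so nothing is read from this count either. Across genes and groups the order of the levels was led by Gtf2h4. Slc35b4 came next and Ankrd40 followed, with overlapping samples in DNP (7.04 to 8.59 against 6.62 to 7.73 FPKM) and in PF. In Ctrl, Ankrd40 and Gtf3c3 were level, at 2.53 and 2.52 FPKM, and after stimulation each Ankrd40 sample exceeded each Gtf3c3 sample. Among the genes with a mean of at least 1 FPKM, the 4 lay between percentiles 10.9 and 22.4 in Ctrl, between 24.0 and 40.0 in DNP and between 28.0 and 45.1 in PF, so all stayed below the median gene of that range. Their CVs between replicates were 13.1 to 17.4% in Ctrl, 5.29 to 10.7% in DNP and 2.51 to 6.70% in PF.

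With PF the mean gain over Ctrl was no smaller than with antigen alone in any of the 4 genes. The rise over Ctrl in PF was 108% of that in DNP for Gtf3c3, 114% for Gtf2h4, 115% for Ankrd40 and 104% for Slc35b4, both rises being taken against the same Ctrl samples. PF to DNP ratios of the means were 1.04, 1.07, 1.1 and 1.02 in the same order. On the log2(FPKM + 1) scale the differences of PF minus DNP were 0.05 (SE 0.066), 0.09 (SE 0.0661), 0.12 (SE 0.0717) and 0.03 (SE 0.0773). On the same scale the differences of DNP minus Ctrl were 0.87, 0.95, 1.21 and 0.99. The sign of the small PF minus DNP differences depended on scaling: the deposited values sum to more in PF (610206 to 630069 FPKM) than in DNP (573023 to 582577) or Ctrl (580702 to 591539), and with all samples brought to the same sum the differences became -0.03 for Gtf3c3, 0.0 for Gtf2h4, 0.03 for Ankrd40 and -0.06 for Slc35b4. In each of the 4 genes, the PF sample given 5 h in one label field had the lowest PF value.

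Few genes of the table showed the same pattern. Of 10280 genes with a mean of at least 1 FPKM over the 9 samples, 69 (0.671%) were at least 2 times Ctrl in DNP, 107 (1.04%) in PF and 39 (0.379%) in both. In 31 of the 39, the 4 among them, every DNP and PF sample lay above every Ctrl sample. The shared genes were 56.5% of the DNP list and 36.4% of the PF list, which share their controls. Ranked by the smaller of both ratios, Ankrd40 was 14th of the 39, Slc35b4 27th, Gtf3c3 29th and Gtf2h4 33rd. Among the first 6 of that ranking were the immediate early genes Egr1, at 46.4 times Ctrl in DNP and 62.0 in PF, Fosb, at 32.8 and 41.5, and Egr2, at 32.1 and 17.7 on a Ctrl mean of 0.0767 FPKM. The other 3 were LOC100910581, which was listed at 0 in Ctrl, LOC108353205 and LOC100912475, with Ctrl means of 0.09 and 0.06 FPKM. For LOC100910581 and LOC108353205, not every DNP and PF sample lay above every Ctrl sample. Just inside the ratio of 2 lay Znhit6, a gene of small nucleolar RNP assembly, with means of 3.42, 7.07 and 6.94 FPKM in Ctrl, DNP and PF, and LOC108348080 (2.02 times Ctrl in DNP). Just outside lay Trub1, a pseudouridine synthase gene, with 1.67, 3.62 and 3.32 FPKM, and LOC100364457 (1.98 times Ctrl in DNP).

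**Figure D2:**
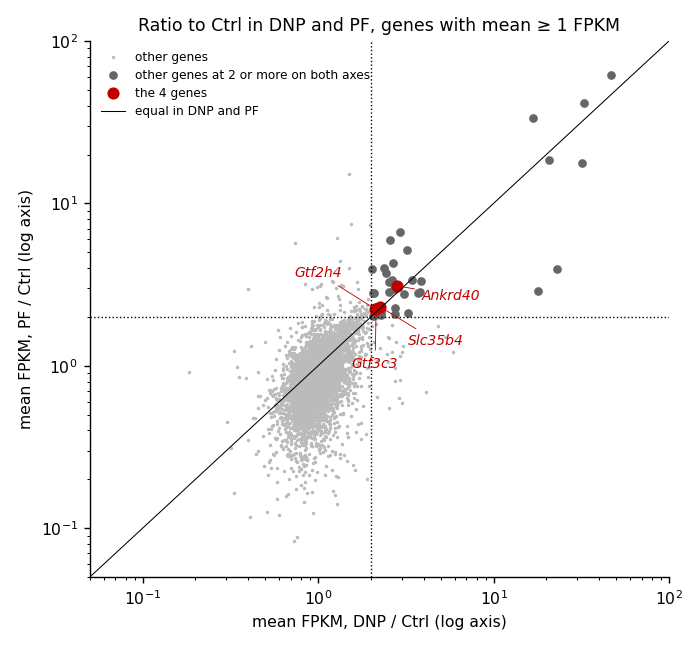
Ratio of mean FPKM to Ctrl in PF (vertical) against that in DNP (horizontal), both on log axes, for 10274 genes with a mean of at least 1 FPKM and no group mean of 0; dotted lines mark a ratio of 2. The 4 genes (red) lie close to the line of equal ratios, at 2.10 to 2.83 times Ctrl in DNP and 2.23 to 3.11 times in PF.

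Within the DNP list the 4 lay close to a PF to DNP ratio of 1, which follows in part from how they were chosen. Over the 69 genes that ratio ranged from 0 to 2.31 with a median of 0.83. It was under 0.5 for 22 genes, and for 21 genes the PF mean exceeded the DNP mean, the 4 among them. Only 12 of the 69 lay from 0.9 to 1.1, again with all 4, Ankrd40 at the edge. With samples scaled by median ratios, Gtf2h4 (1.11) and Ankrd40 (1.13) lay outside, as did Ankrd40 without DNP replicate 2 (1.14). With equal sums all 4 lay inside (0.953 to 1.03). Membership leaned on a single control library for 2 genes: without Ctrl replicate 2, the lowest Ctrl sample of both, Gtf3c3 was 1.97 times and Gtf2h4 1.93 times Ctrl in DNP. Ankrd40 stayed between 2.61 and 3.41 times Ctrl in both groups whichever sample was left out.

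Over the 9 samples the 4 genes moved together, with Pearson correlations on log2(FPKM + 1) of 0.952 to 0.993, which mainly restate the shared group pattern. After each group's mean was removed, 2 pairs remained. Gtf3c3 and Gtf2h4 correlated at 0.751, both being lowest in replicate 2 of Ctrl and highest in replicate 1 of PF. In DNP they differed, Gtf3c3 being lowest and Gtf2h4 highest in replicate 1. Ankrd40 and Slc35b4 correlated at 0.849, both being lowest in replicate 1 and highest in replicate 3 of Ctrl, and lowest in replicate 1 and highest in replicate 2 of DNP. In PF Ankrd40 was highest in replicate 3 and Slc35b4 in replicate 1. The other 4 pairs lay between -0.131 and 0.048. These values rest on 9 libraries, whose depth and composition each pair shares.

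The genes whose profile was most like the mean profile of the 4 were Rexo4 (r = 0.996 over the 9 samples), Scin (0.995), Snrpa1 (0.992), Ndc1 (0.991), Egr1 (0.989), Prpsap2 (0.989), Iqgap3 (0.988), Stk39 (0.988), Mus81 (0.988) and Psmg2 (0.987). Rexo4 encodes a nuclear exonuclease, and its means were 13.7, 20.2 and 20.7 FPKM in Ctrl, DNP and PF. Snrpa1, a U2 spliceosome component, went from 29.1 to 51.1 and 56.8 FPKM, and Ndc1, a nuclear pore protein gene, from 12.0 to 21.8 and 24.5 FPKM. Scin, which encodes the actin-severing protein scinderin, went from 46.5 to 61.2 and 63.2 FPKM. Egr1 was the only one of the 10 to reach 2 times Ctrl in both groups. Among the 10276 genes compared, 507 (4.93%) reached an r of 0.9. Since the 4 were chosen for their group pattern, a high r mainly restates that pattern. With each group's mean removed, r was -0.284 for Egr1 and 0.75 to 0.904 for the others of the 10. The 10 were ranked by an r that includes these deviations within groups, so high values here follow in part from the ranking.

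**Figure D3:**
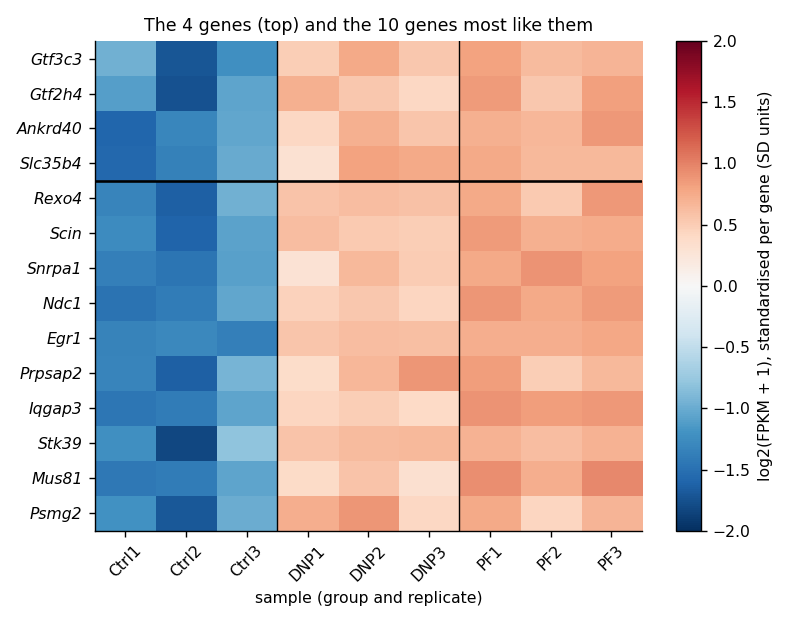
Standardised log2(FPKM + 1) of the 4 genes (top 4 lines) and of the 10 genes most like them (below) in the 9 samples, in SD units per gene, blue for low and red for high. Each line is low in the 3 Ctrl samples and high in the DNP and PF samples, with r of 0.987 to 0.996 for the lower 10.

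Partners of the 4 genes were measured in the same fits across all genes. These fits called 29.2% of genes in DNP vs Ctrl (14.7% higher, 14.4% lower), 48.8% in PF vs DNP (18.1% higher, 30.7% lower) and 57.7% in PF vs Ctrl (23.1% higher, 34.6% lower), by adjusted p of at most 0.05 (limma on log2(FPKM + 1)). PF vs DNP held 1870 higher and 3172 lower calls, a split that became 2527 and 2741 with median-ratio scaling and 869 and 4302 with equal sums, the median of all genes moving from -0.04 to 0.01 and -0.13 on the log2 scale. PF vs Ctrl held 2389 higher and 3586 lower calls, which became 2929 and 3175, and 1575 and 4316. The counts in the lists below are to be read beside these shares of all genes called.

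In DNP vs Ctrl no other subunit of TFIIIC passed the test. Of Gtf3c1, Gtf3c2, Gtf3c4, Gtf3c5 and Gtf3c6, 0 passed there by limma, with 1 at an unadjusted p under 0.05 (Gtf3c1, from 12.1 to 13.6 FPKM, adjusted p = 0.0906), and 0 passed in each of 13 alternative fits. Their log2 fold changes ran from -0.04 to 0.16, while that of Gtf3c3, chosen for its rise, was 0.87. In PF vs DNP, Gtf3c2 fell by 0.17 on the log2 scale (adjusted p = 0.0199), a call lost with median-ratio scaling (adjusted p = 0.0595), and without DNP replicate 1, DNP replicate 2 or PF replicate 2 (adjusted p up to 0.0679). In PF vs Ctrl, Gtf3c1 rose by 0.17 (adjusted p = 0.019), which equal sums removed (adjusted p = 0.15), as did leaving out Ctrl replicate 1, Ctrl replicate 3 or PF replicate 1. With equal sums 2 other subunits passed there as lower, Gtf3c2 (adjusted p = 0.0316) and Gtf3c5 (adjusted p = 0.03).

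In the wider list of 25 genes of TFIIIC and Pol III transcription, 6 rose, 3 fell and 16 did not pass in DNP vs Ctrl, with a median log2 fold change of 0.02 beside -0.01 for all genes. Polr3c, which encodes a Pol III subunit, rose from 18.5 to 23.3 FPKM (log2 0.32, SE 0.0492, adjusted p = 0.0025). Maf1, the repressor of Pol III, fell from 35.2 to 28.6 FPKM (log2 -0.29, SE 0.0523, adjusted p = 0.00509), and the subunit gene Polr3b fell from 18.5 to 15.1 FPKM (adjusted p = 0.012). In PF vs DNP, 7 genes of the list rose and 6 fell, or 2 and 11 with equal sums and 9 and 4 with median-ratio scaling. Brf2, a TFIIIB component, fell from 5.86 to 3.69 FPKM (log2 -0.55, adjusted p = 0.00229) under each scaling. In PF vs Ctrl, 9 rose and 6 fell, or 6 and 9 with equal sums. Among those that rose were Gtf3a, the 5S rRNA gene factor, from 35.3 to 45.8 FPKM (adjusted p = 9.24e-05), and Ssb, which encodes the La protein that binds new Pol III transcripts, from 122.0 to 155.0 FPKM (adjusted p = 0.000235).

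Among the 9 other TFIIH subunits, 3 rose in DNP vs Ctrl and 6 did not pass. All 3 rose less than Gtf2h4, but Gtf2h4 was chosen for its rise, so nothing is read from that order. Mnat1, a part of the CDK-activating module, rose from 39.8 ± 2.36 to 57.0 ± 3.14 FPKM (log2 0.51, SE 0.055, adjusted p = 0.000516) and measured 54.1 FPKM in PF, where its difference from DNP did not pass (log2 -0.07, adjusted p = 0.209), although it passed as lower with equal sums (log2 -0.17, adjusted p = 0.0148). Gtf2h2 and Gtf2h3, genes of the TFIIH core, rose from 10.7 and 11.5 to 13.1 FPKM each (adjusted p = 0.0364 and 0.0372). Both calls were lost in each of the 5 fits that left out Ctrl replicate 1, Ctrl replicate 2 or any one DNP replicate (adjusted p up to 0.125). The helicase genes Ercc2 and Ercc3, the latter encoding the XPB partner of p52, did not pass, at log2 fold changes of 0.07 (adjusted p = 0.497) and 0.06 (adjusted p = 0.23).

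With PF, Cdk7, the kinase of TFIIH, fell from 34.2 ± 0.481 FPKM in DNP to 22.6 ± 0.11 in PF (log2 -0.58, SE 0.0367, adjusted p = 4.38e-06) and was also below Ctrl (36.9 FPKM, log2 -0.68, adjusted p = 9.57e-06). Gtf2h5 rose from 40.6 to 47.7 FPKM in PF vs DNP (log2 0.23, adjusted p = 0.00823), which equal sums took to an adjusted p of 0.0637. Across the list of 17 TFIIH and general Pol II factors, 3 rose and 0 fell in DNP vs Ctrl by limma, with 1 lower at an unadjusted p under 0.05 (Cdk7). In PF vs DNP 1 rose and 4 fell, or 0 and 10 with equal sums, where 1 was higher at an unadjusted p under 0.05. Gtf2e1 and Gtf2b, factors of the Pol II initiation complex, were among those that fell, from 6.88 to 4.63 FPKM (adjusted p = 0.000479) and from 37.4 to 29.4 FPKM (adjusted p = 0.00398).

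**Figure D4:**
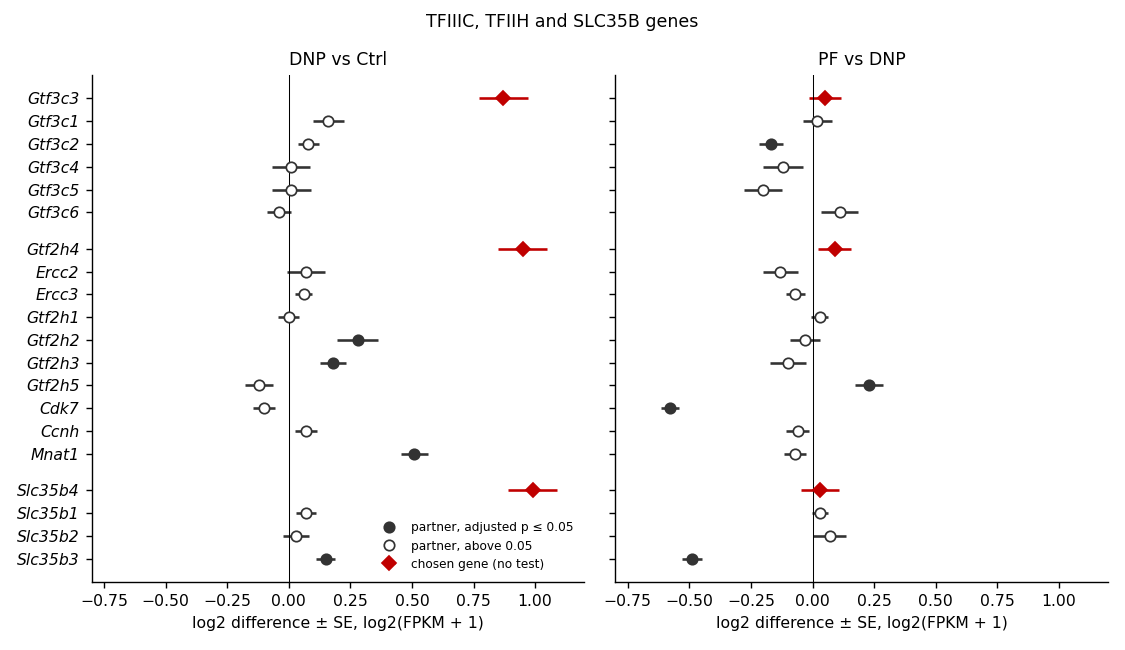
Log2 difference on log2(FPKM + 1) with its SE (horizontal) for Gtf3c3, Gtf2h4 and Slc35b4 (red diamonds, untested) and for their TFIIIC, TFIIH and SLC35B relatives (circles, filled where the adjusted p was at most 0.05), in DNP vs Ctrl (left) and PF vs DNP (right). At left the 3 diamonds, genes chosen for their rise, lie at 0.87 to 0.99, and the highest circle, Mnat1, lies at 0.51. At right Cdk7 lies at -0.58 and Slc35b3 at -0.49.

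TFIIH also works in nucleotide excision repair, and of 20 genes of that pathway 4 rose, 3 fell and 13 did not pass in DNP vs Ctrl, and 6 rose and 3 fell there with equal sums. Ercc1, which encodes a subunit of the repair endonuclease, had the highest fold change of the list, from 11.4 ± 0.81 to 19.0 ± 0.457 FPKM (log2 0.70, SE 0.0581, adjusted p = 0.000158). It reached 23.7 ± 0.892 FPKM in PF, above DNP (log2 0.30, adjusted p = 0.000658) and 1.00 above Ctrl on the log2 scale (adjusted p = 4.73e-06). Xpa, the damage verification factor, fell from 3.66 to 2.44 FPKM in DNP (log2 -0.43, adjusted p = 0.00771). In PF vs DNP 6 genes of the list rose and 4 fell, or 3 and 6 with equal sums. With median-ratio scaling 9 rose and 0 fell, with 2 lower at an unadjusted p under 0.05 by limma.

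The other SLC35 transporter genes gave calls in both directions in DNP vs Ctrl. Of 19 SLC35 genes tested (22 of 27 had values), 3 rose, 5 fell and 11 did not pass, with a median log2 fold change of -0.08 beside -0.01 for all genes, of which 14.7% rose and 14.4% fell. Slc35b1 and Slc35b2 did not pass (log2 0.07 and 0.03, adjusted p = 0.231 and 0.671). Slc35b3, which like Slc35b2 carries the sulfate donor PAPS, rose from 31.9 to 35.5 FPKM (log2 0.15, adjusted p = 0.0218), a call that held in 1 of the 6 fits with a sample left out, the one without Ctrl replicate 3. Slc35b3 then fell to 24.9 FPKM in PF (log2 -0.49 against DNP, SE 0.0395, adjusted p = 1.67e-05). Slc35e4 had the highest fold change of the list, from 23.7 ± 1.69 to 41.2 ± 0.797 FPKM (log2 0.77, adjusted p = 7.21e-05), and it returned to 25.8 ± 0.962 FPKM in PF (log2 -0.66 against DNP, adjusted p = 4.23e-06). In PF vs DNP 1 SLC35 gene rose (Slc35g1, adjusted p = 0.0388, or 0.219 with equal sums, and kept in 1 of the 6 fits with a sample left out, the one without DNP replicate 1) and 7 fell. With equal sums 0 rose by limma (0 at an unadjusted p under 0.05) and 10 fell.

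The genes that make and use UDP-xylose gave a mixed picture. Of 26 tested in DNP vs Ctrl, 9 rose, 3 fell and 14 did not pass, where 14.7% of all genes rose and 14.4% fell. Uxs1, the enzyme that makes UDP-xylose, rose from 44.9 ± 1.13 to 51.9 ± 0.439 FPKM (log2 0.20, adjusted p = 0.00384) and measured 56.4 ± 0.785 FPKM in PF (log2 0.32 against Ctrl, adjusted p = 0.000155). B4galt7, which adds the first galactose to the xylose of the glycosaminoglycan linker, rose from 6.27 ± 0.464 to 9.76 ± 0.248 FPKM in DNP (log2 0.57, SE 0.0653, adjusted p = 0.00067). It remained at 9.66 ± 0.9 FPKM in PF (log2 0.55 against Ctrl, adjusted p = 0.00051). Other genes of the list lost expression with PF: of 25 tested in PF vs DNP, 3 rose and 12 fell, with a median of -0.21 beside -0.04 for all genes, of which 18.1% rose and 30.7% fell. With equal sums 0 rose by limma (0 at an unadjusted p under 0.05) and 13 fell. The chondroitin sulfotransferase gene Chst12 fell from 65.1 to 28.3 FPKM (log2 -1.17, adjusted p = 4.79e-07), the heparan sulfotransferase gene Ndst2 from 12.8 to 5.44 FPKM (log2 -1.10, adjusted p = 4.89e-06) and Csgalnact1, which starts chondroitin chains, from 1.71 to 0.54 FPKM (log2 -0.82, adjusted p = 0.000274). Csgalnact1 lies near the floor and met the filter of 1 FPKM only through its DNP samples, so its fall was in part set by the filter. The 3 that rose, Uxs1, Xylt2 and Ext2, had adjusted p of 0.0148, 0.0365 and 0.0452, and of 0.669, 0.155 and 0.5 with equal sums. Each of these 3 calls was also lost with 1 or more samples left out, that of Uxs1 without DNP replicate 2 (adjusted p = 0.0538).

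Numbered ankyrin repeat (ANKRD) genes share with Ankrd40 only a repeat and a name. Of 23 tested, 4 rose and 1 fell in DNP vs Ctrl, and 4 rose and 11 fell in PF vs DNP, or 8 and 9 with median-ratio scaling and 3 and 12 with equal sums. Of all genes, 14.7% rose and 14.4% fell in DNP vs Ctrl, and 18.1% rose and 30.7% fell in PF vs DNP. Ankrd28, a regulatory subunit of protein phosphatase 6, rose from 30.9 ± 0.913 to 50.5 ± 1.93 FPKM in DNP (log2 0.69, adjusted p = 3.27e-05) and was at 28.1 ± 1.68 FPKM in PF (log2 -0.83 against DNP, adjusted p = 3.8e-06). Ankrd46 and Ankrd13b, in contrast, were above Ctrl in both groups, as Ankrd40 was. Ankrd46 went from 5.99 to 8.47 FPKM in DNP (log2 0.44, adjusted p = 0.00374) and 9.19 FPKM in PF (log2 0.55 against Ctrl, adjusted p = 0.000293). Ankrd13b went from 3.21 to 4.47 FPKM (log2 0.38, adjusted p = 0.00918) and 5.34 FPKM (log2 0.59 against Ctrl, adjusted p = 0.000216).

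Of the genes beside the 4 in the genome, 3 could be tested, and 0 of them passed in DNP vs Ctrl by limma (0 at an unadjusted p under 0.05). By the gene order of GRCr8, Akr1b1 lies beside Slc35b4, with the unmeasured pseudogene Ndufab1-ps2 between them, and had 91.6, 92.3 and 97.0 FPKM in Ctrl, DNP and PF (adjusted p = 0.853 in DNP vs Ctrl). Luc7l3 lies beside Ankrd40 and had 130.0, 127.0 and 142.0 FPKM, passing in PF vs DNP at a log2 fold change of 0.16 (adjusted p = 0.01, or 0.276 with equal sums) but not in DNP vs Ctrl (adjusted p = 0.652). In PF vs Ctrl Luc7l3 passed at 0.13 (adjusted p = 0.0224), a call lost with equal sums (adjusted p = 0.364) and without Ctrl replicate 2, PF replicate 1 or PF replicate 3 (adjusted p up to 0.0761). Vars2, on one side of Gtf2h4, had 1.78, 2.03 and 2.41 FPKM (adjusted p = 0.423 in DNP vs Ctrl), and Ddr1, on the other side, had 0.863, 0.437 and 0.207 FPKM, too low for the test. Ccdc150 overlaps Gtf3c3 and had at most 0.56 FPKM in any sample, with means of 0.157, 0.517 and 0.163. The remaining neighbours C9h2orf66, Abcc3 and Lrguk had at most 0.09 FPKM in any sample. The lncRNA genes LOC134483850 and LOC134480857, which overlap Gtf2h4 and Ankrd40, had no value, and whether the counting used strand is not stated.

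The labels give the tissue as peripheral blood and the cell type as blood corpuscle, and 14 of 15 mast cell and basophil markers had values, each at 1 FPKM or more in all 9 samples, with a summed level of 5970 to 6120 FPKM in Ctrl, 5850 to 5950 in DNP and 6050 to 6260 in PF. Srgn, the serglycin gene, made up much of this sum, at group means of 2780, 2840 and 2910 FPKM. The group means of single markers went in both directions. The protease gene Mcpt8 had group means of 18.6, 9.67 and 7.61 FPKM in Ctrl, DNP and PF, and the receptor gene Kit 283.0, 238.0 and 228.0. In contrast, Ms4a2 had group means of 431.0, 461.0 and 476.0 FPKM, and Mitf 16.8, 24.9 and 20.8. Of 5 T cell markers, 1 (Cd3e) was at 1 FPKM or more in all samples, and the list summed to 6.96 to 8.91, 8.63 to 9.55 and 8.74 to 10.3 FPKM. The B cell marker Cd79a had a group mean of at most 0.793 FPKM. Macrophage, fibroblast, epithelial and erythroid markers each summed to at most 2.07 FPKM in any sample. Fewer cells of a type and less RNA per cell cannot be told apart in such bulk samples, and the part of these levels in the results was not tested.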

How the data were processed

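RNA of 9 RBL-2H3 samples was sequenced (labels: Illumina protocols; study methods: BGISEQ-500). By the study's methods and the submitters' processing notes, the authors filtered reads with SOAPnuke, used HISAT2 2.0.4, Bowtie2 2.2.5 and RSEM 1.2.12 with the build rn6, and deposited 1 normalized value per gene and sample. These deposited values are read as FPKM, although their heading names no unit. They list 38490 genes, 20484 without a value. Samples were joined by gene identifier, since the lists have 5 gene orders. Read depth is unknown, so no counting error is given and precision rests on 3 replicates. Low-value steps of 7 genes put relative depth between 0.986 and 1.02. Genes were kept for this only if their steps matched between samples within 0.04, so a larger difference in depth could not show.

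Genes with at least 1 FPKM in 3 of the 6 compared samples were fitted with limma 3.58.1 in R 4.3.3 (trend) on log2(FPKM + 1), which understates changes of low genes, calling genes at a Benjamini-Hochberg adjusted p of at most 0.05. Each comparison used its own 6 samples. No label says that replicates came from separate cultures, so p-values measure the spread between these samples. On simulated data, 193 of 200 changed genes were called in DNP vs Ctrl (10377 genes, 7 unchanged genes called), 198 in PF vs DNP (10263 genes, 6 called) and 193 in PF vs Ctrl (10286 genes, 10 called). The planted changes were all 1 log2 unit up or down, with normally distributed noise, and only in genes above the lowest levels. Smaller changes, such as many of those named here, were not simulated, and far fewer genes were changed than the fits called.

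The 4 genes, the lists and the motifs were chosen with earlier results of these data known. Named besides the 4 are the leading other genes at 2 times Ctrl or more in both groups (at most 10) and those beside the ratio of 2, the 10 genes with the highest correlation with the mean profile of the 4, list genes that passed with the largest changes (at most 3 per list, direction and comparison), whole TFIIIC, TFIIH and SLC35B groups, and neighbours. Slc35e2 and Slc35e2b are one gene in the files and counted once. Likeness and motifs were computed with Python 3.11.15. Alternatives were another pseudocount (0.1), no filter, all groups in the fit, no trend, other scalings, a replicate block and each sample left out.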

Additional observations from a re-analysis of the deposited data

How the results depend on the processing

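Across the alternatives the log2 difference from Ctrl stayed above 0 for the 4 genes, in 40 of 40 values for DNP (0.77 to 1.48) and 44 of 44 for PF (0.83 to 1.61). The 4 were chosen for standing well above Ctrl in both groups, so this sign follows from the choice and nothing is read from it. The PF minus DNP difference ran from -0.06 to 0.17 and was below 0 for Gtf3c3 and Slc35b4 with equal sums and for Slc35b4 without DNP replicate 1 (-0.05). The 39 genes at 2 times Ctrl or more in both groups became 13 when a log2(FPKM + 1) difference of 1 was asked, with Ankrd40 the only one of the 4 left, and 14 with a mean of at least 5 FPKM, without Gtf3c3, since both settings ask more of genes at low levels. Leaving out single samples gave counts of 32 to 50.

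Genes passing the test numbered 3031 in DNP vs Ctrl, 5042 in PF vs DNP and 5975 in PF vs Ctrl, and 2099 to 2736, 4138 to 4796 and 5147 to 5541 with each sample left out. With only the PF sample given 4 h in every label field they numbered 3633 and 4022 in the PF comparisons. The lone PF sample is then assumed to vary like the other group. Same-numbered samples did not deviate together (correlations of -0.073 to 0.182), so the numbers were not taken to pair the samples, and with the replicate block 2697, 4675 and 6009 genes passed. Scaling of the lists and the likeness without group means were added after seeing the data. Depth in reads is unknown, so no limit from depth can be stated.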
